A study of Mus musculus with 4 samples.

Results

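Cartilage in the limb is laid down by mesenchymal cells that condense, switch on the transcription factor Sox9 and then secrete a collagen and proteoglycan matrix. Sox9 is required for that switch and activates the matrix genes, and Sox5 and Sox6, a pair of closely related factors with no activation domain of their own, act with it on the same genes. The matrix has collagen II fibrils with collagen XI in their core and collagen IX on their surface, set in a gel of the proteoglycan aggrecan held to hyaluronan by link protein. The 10 genes described here are the Sox trio (Sox5, Sox6, Sox9) and the matrix genes Col2a1, Col9a1, Col9a2, Col9a3, Col11a1, Acan and Hapln1, taken by gene symbol from the 25239 symbols in the count table. All 10 were in the table, and all 10 passed the filter on low counts that left 14610 genes to test.

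RNA was sequenced from hindlimb bud cells of FVB mouse embryos at embryonic day 11.5. Every embryo was otherwise wild-type and carried, at the H11 safe-harbour site, an mCherry reporter behind the hsp68 minimal promoter and a human copy of the limb enhancer ZRS with the 404G>A change. The anterior group (2 libraries) held cells dissected from the anterior hindlimb and sorted as mCherry+, and the central group (2 libraries) held cells dissected from the central hindlimb and sorted as mCherry-. Position in the limb and activity of the reporter therefore cannot be told apart, and the labels do not say how many embryos were pooled or whether the 2 libraries of a group came from separate embryos, so p-values measure the spread between these libraries, which may be technical.

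Library totals were 30080925 to 33257383 counts, with 16476 to 17244 genes detected, and of the counts from 1 to 10 between 72.8% and 75.6% were even in each library. Whether both mates of a read pair were counted is not given in the sources used here; if they were, each count overstates the number of fragments, low counts included. With all counts halved, 7 of the 9 cartilage genes still tested were called lower, Acan being untested there. Markers of limb mesenchyme were abundant in both populations, at a summed 2668 and 2632 CPM in anterior and 2400 and 2253 CPM in central libraries over 7 genes (CPM are counts relative to library size after TMM scaling, and a pair of values gives replicate 1, then replicate 2). Of these 7 genes, 3 were called higher and 1 lower in anterior cells (57.1%, against 22.9% of all genes tested). The sums therefore hide opposed changes. Msx1, named after its values were seen, measured 238 and 253 CPM in anterior against 29.2 and 22.3 CPM in central libraries. Pdgfra, also named after its values were seen, measured 278 and 238 CPM against 593 and 572 CPM. Markers of other cell types differed between the populations too. The 10 erythroid markers summed to 3294 and 8400 CPM in anterior against 5.97 and 9.48 CPM in central libraries, with Hba-a1 and Hba-a2 at 0 in every library. The 7 myogenic markers summed to 4.17 and 2.35 CPM in anterior against 143 and 142 CPM in central libraries, and 2 of them had 0 counts in both anterior libraries. The 11 ectoderm markers summed to 10.4 and 10.5 CPM in anterior libraries, and to 57.2 and 191 CPM in central replicates 1 and 2. The 10 endothelial markers summed to 13.6 and 20.3 CPM against 39.5 and 49.7 CPM, and the 9 myeloid markers to 26.1 and 20.7 CPM against 9.61 and 9.08 CPM.

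The cartilage genes were lower in the anterior mCherry+ cells. Of the 10, 7 fell (Sox6, Sox9, Col2a1, Col9a1, Col9a2, Col9a3, Col11a1), none rose, and Sox5, Acan and Hapln1 did not pass the test (edgeR quasi-likelihood test, Benjamini-Hochberg adjusted p under 0.05 over all 14610 genes). Over all genes tested, 22.9% were called, 12.3% as lower and 10.7% as higher in anterior cells. At an adjusted p under 0.01, 6 of the 10 genes and 11.6% of all genes were called, and against a change of 1.5-fold 6 of the 10 and 7.08% of all genes. The median log2 fold change of the 10 genes was -1.57, against -0.01 over all genes tested. Summed over the 10 genes, the level was 531 and 395 CPM in the anterior libraries and 1775 and 1367 CPM in the central ones. In these sorted populations, fewer cartilage-forming cells and less of these RNAs per cell cannot be told apart.

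**Figure D1:**
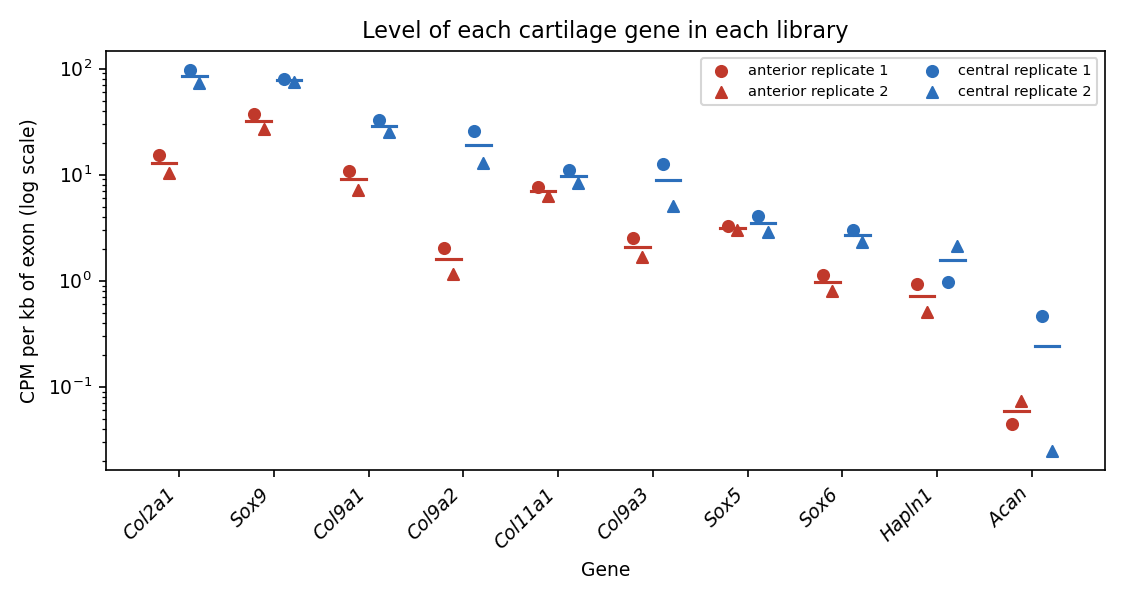
Level of each cartilage gene in CPM per kb of exon (log axis) in each of the 4 libraries; horizontal lines are group means, red anterior, blue central, circles replicate 1 and triangles replicate 2. Col2a1 and Sox9 stand at the top of the central libraries at group means of 85.3 and 77.3, and Acan at the bottom, with its anterior points between the 2 central ones.

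Per kb of exon, Sox9 and Col2a1 had the highest means in both populations. In central cells Col2a1 stood at 97.4 and 73.1 CPM per kb and Sox9 at 79.9 and 74.8, so the values of this pair overlapped. Col9a1 followed at 32.4 and 25.2 CPM per kb, above Col9a2 at 25.6 and 12.8, whose first library overlapped it. Col11a1 (11.02 and 8.27 CPM per kb) and Col9a3 (12.7 and 5.04) also overlapped each other, and the higher Col9a3 library lay just below the lower Col9a2 one. Sox5, Sox6, Hapln1 and Acan came last, at means of 3.47, 2.67, 1.55 and 0.243 CPM per kb. Sox5 (4.04 and 2.91) and Sox6 (3.01 and 2.33) overlapped, and Sox6 and Hapln1 did not. In anterior cells the order changed at the top: Sox9 led alone at 37.0 and 27.1 CPM per kb, ahead of Col2a1 at 15.2 and 10.4, which overlapped Col9a1 at 10.8 and 7.24, and Col9a2 dropped in the mean below Col11a1, Col9a3 and Sox5, at 2.02 and 1.15 against 3.29 and 3.03 for Sox5. These levels divide by the union of all annotated exons, and with the longest annotated transcript instead the central mean of Col2a1 was 154 CPM per kb, above Sox9, whose value stayed at 77.3. That length also raised the central means of Col11a1, Sox5 and Sox6 to 16.03, 6.90 and 4.57 CPM per kb, with the 10 central means in the same order. In anterior cells it put the mean of Col2a1 at 23.2 CPM per kb, nearer to the 32.0 of Sox9. How far Sox9 led there therefore depended on the length used.

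Within the Sox trio the 3 genes differed in how far they fell. Sox9, the master regulator of chondrogenesis (chromosome 11, 112782224 to 112787760, GRCm38), measured 153 and 112 CPM in the anterior libraries and 330 and 309 CPM in the central ones. Both anterior libraries lay below both central ones, and the central pair differed by less than the anterior pair. The log2 fold change was -1.27 ± 0.13 (SE), a 2.41-fold fall (edgeR adjusted p 0.00019). Groups did not overlap for 63.5% of all genes tested, and 32.6% were lower in anterior cells with no overlap; of the 10 genes here, 8 were on scaled values.

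Sox6 (chromosome 7, 115470872 to 116038796) measured 16.7 and 11.9 CPM in anterior and 44.6 and 34.6 CPM in central libraries. Its groups were well apart, and the 2.76-fold fall passed the test (log2 fold change -1.47 ± 0.18 SE, edgeR adjusted p 0.000609). Sox6 is also known for roles in red cell and muscle development, and the erythroid markers moved the opposite way to it while the myogenic markers moved with it; their part in its change was not tested.

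Sox5 (chromosome 6, 143828425 to 144781977) measured 47.3 and 43.6 CPM in anterior and 58.1 and 41.8 CPM in central libraries. The anterior values lay between the central ones, the log2 fold change was -0.13 ± 0.14 (SE) and the edgeR adjusted p was 0.554. The 2 central libraries decided its direction: without central replicate 1 the log2 fold change was 0.12 (edgeR adjusted p 0.498), and without central replicate 2 it was -0.35 and was called (edgeR adjusted p 0.0245). The gene Sox5os1, annotated on the opposite strand, shares 1330 exon bases with Sox5, and whether reads were counted by strand is not given in the sources used here. Sox13, the remaining SoxD relative of Sox5 and Sox6 and chosen after its values were seen, measured 34.1 and 39.5 CPM in anterior and 34.4 and 40.9 CPM in central libraries, with overlapping groups.

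**Figure D2:**
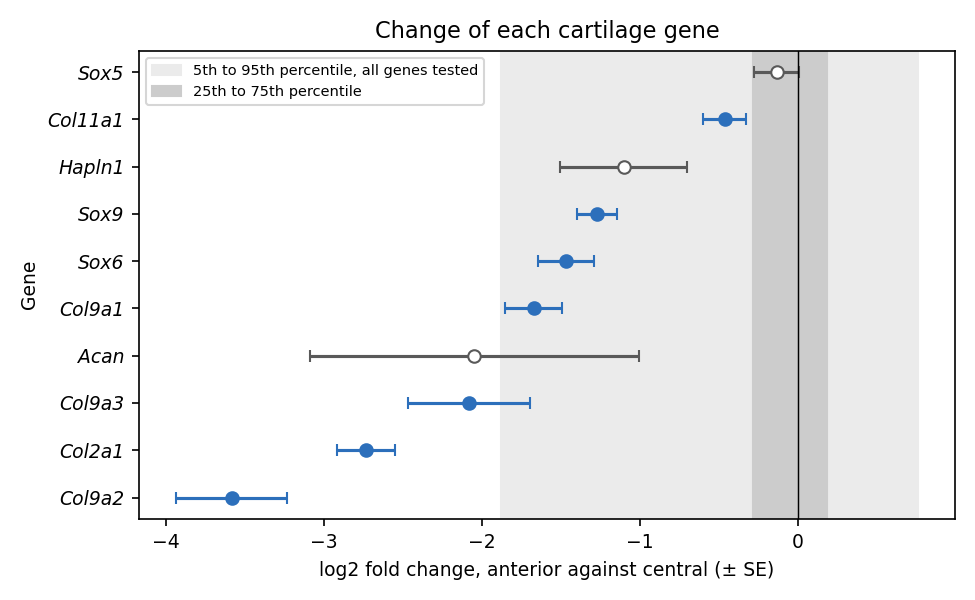
Log2 fold change of each cartilage gene, anterior against central, with its SE; filled blue points passed the test and open points did not. The shaded bands give the spread over all 14610 genes tested, from -1.88 to 0.76 for the 5th to 95th percentile, and Col9a2, Col2a1, Col9a3 and Acan have points left of the band.

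The fibril collagens fell by unlike amounts. Col2a1, which encodes the only chain of collagen II (chromosome 15, 97975602 to 98004695), measured 140 and 96.6 CPM in anterior and 900 and 676 CPM in central libraries. Every central value was above 4 times the highest anterior one, and the log2 fold change was -2.73 ± 0.18 (SE), a 6.65-fold fall (edgeR adjusted p 2.05e-05). In the central libraries Col2a1 supplied 50.7% and 49.5% of the counts of the 10 genes, and in the anterior ones 26.4% and 24.4%. Col11a1, a chain of the collagen XI in the fibril core that is also made outside cartilage (chromosome 3, 114030540 to 114220718), measured 97.4 and 80.8 CPM in anterior and 140 and 105 CPM in central libraries. The groups did not overlap but lay close together, and the 1.38-fold fall passed narrowly (log2 fold change -0.46 ± 0.14 SE, edgeR adjusted p 0.0404). That call was lost without anterior replicate 2 (log2 fold change -0.33, edgeR adjusted p 0.191) and without central replicate 1 (-0.24, adjusted p 0.108). Its partner chain Col11a2, chosen after its values were seen, stood at 7.35 and 6.58 CPM in anterior and 21.8 and 11.3 CPM in central libraries (log2 fold change -1.25 ± 0.28 SE, edgeR adjusted p 0.0141).

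Collagen IX is built from the products of Col9a1, Col9a2 and Col9a3, and all 3 fell. Col9a1 (chromosome 1, 24177610 to 24252684) measured 54.9 and 36.7 CPM in anterior and 164 and 128 CPM in central libraries. Col9a2 (chromosome 4, 121039385 to 121055322) measured 6.27 and 3.55 CPM in anterior and 79.1 and 39.6 CPM in central libraries. Col9a3 (chromosome 2, 180597790 to 180622189) measured 9.65 and 6.41 CPM in anterior and 48.9 and 19.4 CPM in central libraries. No group overlapped for any of the 3, but the central libraries of Col9a2 and Col9a3 differed by 1.997 and 2.52 times, with replicate 1 the higher, against 1.29 times for Col9a1. The log2 fold changes were -1.67 ± 0.18, -3.58 ± 0.35 and -2.08 ± 0.39 (SE), with edgeR adjusted p of 0.000305, 0.000171 and 0.00552. The 11.98-fold fall of Col9a2 was the largest of the 10 genes. Col9a3 depended most on 1 library in size: without central replicate 1 its log2 fold change was -1.27 and it was still called (edgeR adjusted p 0.0011). Exons of Col9a3 and of Tcfl5, on the opposite strand, share 234 bases, and Tcfl5 measured 1.499 and 1.64 CPM in anterior and 0.974 and 1.67 CPM in central libraries.

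The genes for aggrecan and for link protein were low, and their libraries disagreed. Acan, which encodes aggrecan (chromosome 7, 79053483 to 79115099), was read 11 and 16 times in the anterior libraries, against 106 and 6 times in the central ones. Central replicate 1 alone was high, central replicate 2 was the lowest of the 4, and the groups overlapped. The log2 fold change was -2.05 ± 1.04 (SE) with an edgeR adjusted p of 0.2; without central replicate 1 it was 1.21 (adjusted p 0.517), and without central replicate 2 it was -2.97 and was called (adjusted p 0.00225). Hapln1, which encodes link protein (chromosome 13, 89539796 to 89611652), went the other way between the central libraries, at 5.52 and 2.9997 CPM in anterior and 5.71 and 12.6 CPM in central libraries. Anterior replicate 1 and central replicate 1 were nearly level, and the raw counts, 184 and 88 against 176 and 409, overlapped where the scaled values did not. The log2 fold change was -1.10 ± 0.40 (SE) and the edgeR adjusted p was 0.0826. Hapln1 was called without anterior replicate 1 (log2 fold change -1.61, adjusted p 0.0255) and without central replicate 1 (-1.56, adjusted p 0.00193), and its change shrank to -0.42 without central replicate 2 (adjusted p 0.465). It was also called by the DESeq2 Wald test (adjusted p 0.0309) and without a filter on low counts (edgeR adjusted p 0.0116). The ectoderm markers also differed between the central libraries, in the direction of Hapln1 and against that of Acan; their part in these values was not tested.

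**Figure D3:**
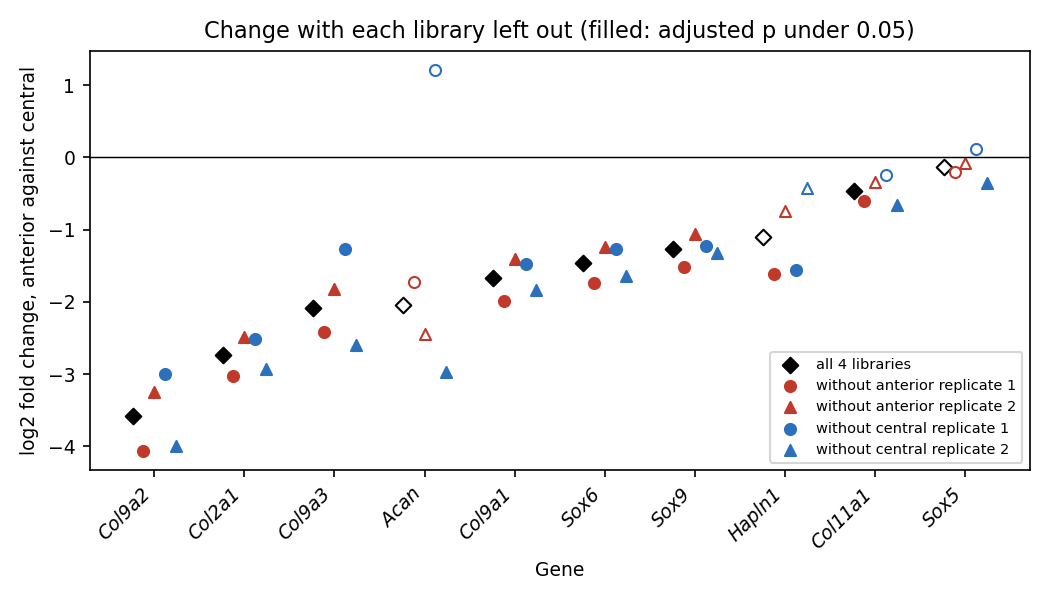
Log2 fold change of each cartilage gene with all 4 libraries (black diamonds) and with each library left out in turn (colours and shapes name the library left out); filled symbols have an adjusted p under 0.05. Sox6, Sox9, Col2a1, Col9a1, Col9a2 and Col9a3 stay filled throughout, while Acan runs from -2.97 to 1.21 and Sox5 from -0.35 to 0.12.

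The replicates of a population also differed in a common direction for these genes. In the anterior pair, 9 of the 10 genes were higher in replicate 1 (the exception was Acan), and in the central pair 9 of 10 were higher in replicate 1 (the exception was Hapln1). Over all genes tested, 49.7% and 50.5% were higher in replicate 1 of the anterior and of the central pair. Erythroid, endothelial and ectoderm markers summed higher in replicate 2 of both populations, and limb mesenchyme, myogenic, myeloid and Schwann and melanoblast markers higher in replicate 1 of both; their part in these differences was not tested. For Sox9 the replicate 1 to replicate 2 ratio was 1.37 in anterior and 1.07 in central cells, and for Col2a1 it was 1.45 and 1.33. Absolute replicate differences of Col9a2, Col9a3, Acan and Hapln1 in central cells lay at or above the 98.3 percentile of all genes tested.

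Setting each gene against Sox9 within a library, which cancels library scaling, and gene length too once 1 gene's ratio is compared between libraries, separated genes that fell further than Sox9 from genes that did not. For every 100 CPM of Sox9 the anterior libraries held 91.6 and 86.2 CPM of Col2a1 and the central ones 272 and 219 CPM. Col9a2 stood at 4.10 and 3.17 CPM per 100 of Sox9 in anterior and 23.9 and 12.8 in central libraries. Both ratios were lower in both anterior libraries, by 1.46 and 2.28 on the log2 scale in the mean. Col9a1 was closer, at 35.9 and 32.8 against 49.7 and 41.3 CPM per 100 of Sox9, and Sox6 nearly level, at 10.9 and 10.6 against 13.5 and 11.2.

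The ratio to Sox9 was higher in anterior cells for Sox5 and Col11a1. Sox5 stood at 31.0 and 38.9 CPM per 100 of Sox9 in anterior against 17.6 and 13.5 in central libraries, and Col11a1 at 63.7 and 72.1 against 42.5 and 34.1. For Col9a3, Acan and Hapln1 the ratios overlapped between the populations. With 2 libraries against 2 an exact two-sided permutation test cannot go below p = 0.333, so the ratios are given as values with no test.

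**Figure D4:**
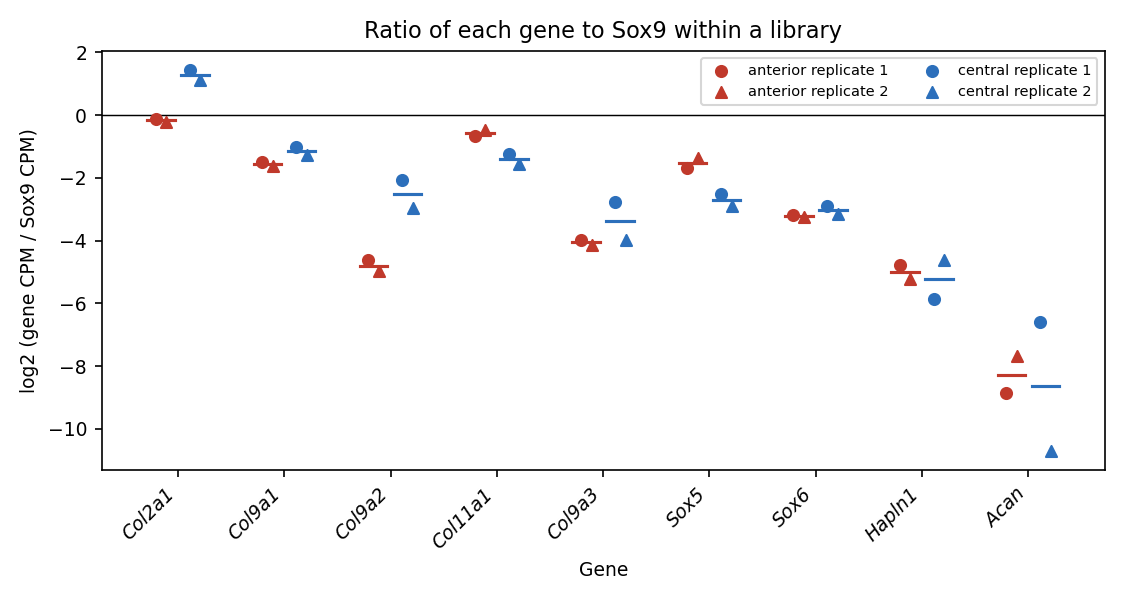
Log2 ratio of each gene's CPM to that of Sox9 in the same library (0 means equal CPM, not equal numbers of molecules, since lengths differ); lines are group means, red anterior and blue central. Col2a1 and Col9a2 sit lower in the anterior libraries, Sox5 and Col11a1 sit higher, and Col9a3, Acan and Hapln1 overlap.

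RefSeq promoter windows (GRCm38.p6) were at hand for 7 of the 10 genes, Acan, Col11a1, Col9a1, Col9a2, Hapln1, Sox5 and Sox6, in 13 windows, since Sox6 has 6 annotated starts and Col9a1 has 2. The 250 bases before each start were searched on both strands for the SOX core motifs ACAAT and ACAAAG, which do not overlap each other in these windows. Of the 13 windows 8 held at least 1 match, against 38.8% of all 32851 windows of the same length. These shares are not of like sets. Most of the 8 were windows of Sox6, and the 13 windows had a median G+C content of 45.2%, against 52.4% over all windows. All 6 windows of Sox6 held a match, as did the window of Sox5 and that of Hapln1, while those of Acan, Col11a1, Col9a1 and Col9a2 held none. The windows below set the collagen genes, from the most to the least changed, beside the SoxD pair, with motif matches in capitals and all sequences read 5′ to 3′ on the gene's strand.
Col9a2 (chr4:121039316-121039565, plus strand): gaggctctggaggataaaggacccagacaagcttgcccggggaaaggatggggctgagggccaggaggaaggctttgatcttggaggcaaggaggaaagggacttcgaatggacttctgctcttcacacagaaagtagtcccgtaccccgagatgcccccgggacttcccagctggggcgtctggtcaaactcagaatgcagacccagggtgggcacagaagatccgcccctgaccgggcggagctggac
Col9a1 (chr1:24177360-24177609, plus strand): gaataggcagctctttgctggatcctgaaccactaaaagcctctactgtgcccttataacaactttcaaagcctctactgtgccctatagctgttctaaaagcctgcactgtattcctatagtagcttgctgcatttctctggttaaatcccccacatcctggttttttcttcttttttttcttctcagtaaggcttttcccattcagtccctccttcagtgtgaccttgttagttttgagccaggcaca
Col9a1 (chr1:24194953-24195202, plus strand): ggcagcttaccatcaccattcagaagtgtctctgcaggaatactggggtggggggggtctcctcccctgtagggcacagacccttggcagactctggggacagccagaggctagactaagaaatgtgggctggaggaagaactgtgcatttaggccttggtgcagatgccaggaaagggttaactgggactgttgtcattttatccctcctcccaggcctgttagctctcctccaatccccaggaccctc
Col11a1 (chr3:114030290-114030539, plus strand): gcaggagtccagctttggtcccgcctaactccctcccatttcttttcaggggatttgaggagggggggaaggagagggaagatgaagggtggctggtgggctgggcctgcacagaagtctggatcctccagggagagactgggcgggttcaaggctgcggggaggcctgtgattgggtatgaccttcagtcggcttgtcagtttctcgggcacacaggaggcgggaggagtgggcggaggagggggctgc
Sox6 (chr7:116038745-116038994, minus strand): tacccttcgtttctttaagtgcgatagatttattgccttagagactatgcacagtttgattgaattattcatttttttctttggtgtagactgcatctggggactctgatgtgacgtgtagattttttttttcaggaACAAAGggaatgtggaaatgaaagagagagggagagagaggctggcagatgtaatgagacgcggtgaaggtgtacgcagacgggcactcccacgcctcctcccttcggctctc
Sox5 (chr6:143947107-143947356, minus strand): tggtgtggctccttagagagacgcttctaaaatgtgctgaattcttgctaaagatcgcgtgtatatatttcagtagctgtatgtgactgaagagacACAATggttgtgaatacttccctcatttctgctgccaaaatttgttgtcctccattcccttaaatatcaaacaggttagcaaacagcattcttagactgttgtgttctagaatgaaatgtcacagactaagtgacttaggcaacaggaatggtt

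The 2 Col9a1 windows belong to its upstream and downstream starts, which give a long and a short form of the chain, and counts per gene do not tell the forms apart. The Sox5 window belongs to a start inside the gene as GENCODE draws it. Most of the Col9a2 window also lies inside the GENCODE gene, which starts at 121039385, as does all of the Hapln1 window, not printed here. The Sox6 window belongs to its most upstream start in RefSeq, and a small part of it lies inside the GENCODE gene. Neither Col9a1 window held a CG dinucleotide, whereas that of Col9a2 held 9 and that of Col11a1 held 7, with a G+C content of 43.6% and 56.0% for Col9a1, 60.4% for Col9a2 and 62.4% for Col11a1. Many elements known to carry SOX9 at cartilage genes lie in introns or far upstream, outside such windows, and a match or its lack is a description of letters only.

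Of the cartilage matrix genes outside the 10, 18 were in the count table and 10 were tested. Of those tested 6 fell and 1 rose (70% called, against 22.9% of all genes tested, median log2 fold change -0.94). Among the falls were Cnmd and Cytl1 (named after its values were seen), with at most 4 and 2 counts in an anterior library. Both passed the filter on low counts through the central libraries alone, so they could be tested only as lower. Matn4 and Fmod, with 50 and 9 and with 12 and 4 counts in the anterior libraries, also passed only because of their central libraries. Their falls carry the same limit. Matn4, encoding a matrilin, measured 1.499 and 0.307 CPM in anterior and 32.9 and 10.4 CPM in central libraries, with an edgeR adjusted p of 0.00171. Cnmd, encoding chondromodulin, had 4 and 0 counts in anterior and 204 and 60 counts in central libraries, and Fmod, encoding fibromodulin, measured 0.360 and 0.136 CPM against 3.90 and 1.95 CPM. Both fell by the test (edgeR adjusted p 0.00257 and 0.00384). The size of these changes depended on the library left out. For Cnmd the log2 fold change ran from -10.03 (without anterior replicate 1) to -4.79 (without central replicate 1). The remaining anterior library behind the value of -10.03 had 0 counts of Cnmd, so that fitted value is no bound on the change. For Matn4 it ran from -6.12 to -3.50 without the same libraries, and for Fmod it was -4.38 without anterior replicate 1. Matn3, chosen after its values were seen, was the gene that rose, at 7.89 and 7.26 CPM against 4.55 and 4.79 CPM, with an edgeR adjusted p of 0.0447, a call that was lost when any 1 of the 4 libraries was left out (0.0722 to 0.196), with library size alone (0.0594), with upper-quartile factors (0.0579), with a mean count of at least 50 (0.0542) and by the DESeq2 Wald test (adjusted p 0.0779). Several cartilage-restricted genes had few or no counts: Snorc and Clec3a were listed at 0 in every library, Col10a1 had at most 5 counts, and Matn1 had 58 and 2 counts in central and 0 in both anterior libraries, which allows up to 3 counts in each.

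**Figure D5:**
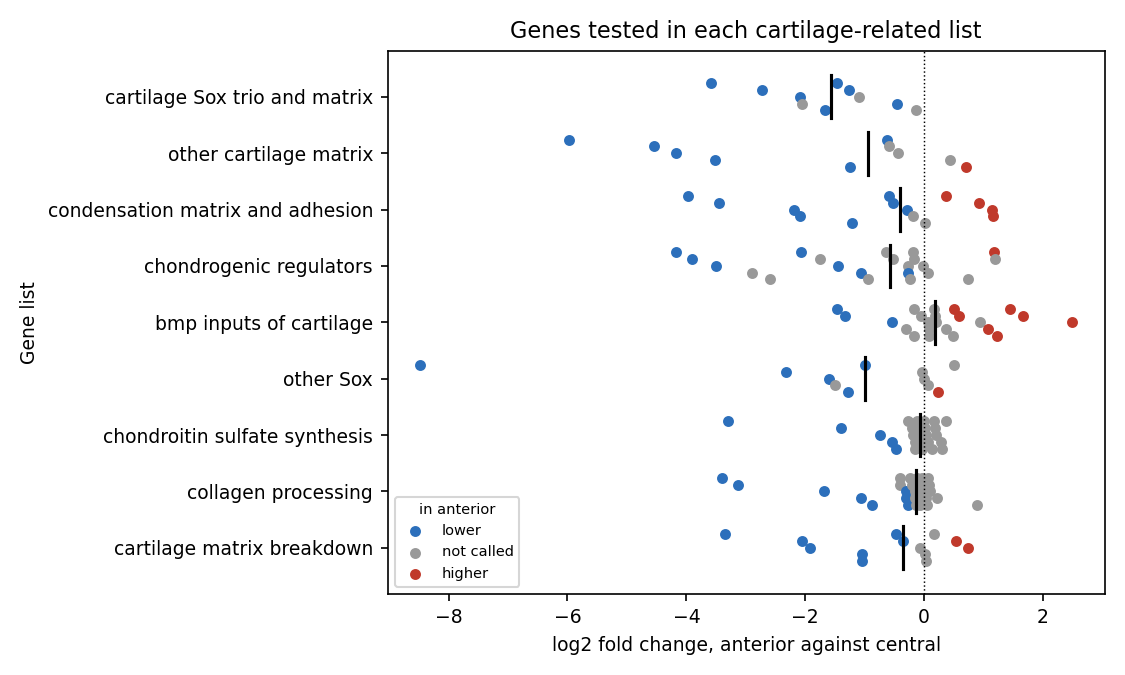
Log2 fold change of every tested gene in the cartilage list and in 8 related lists; blue and red points passed the test as lower and higher in anterior cells, grey points did not, and the black bar is the list median. The leftmost point, Sox10, had 0 counts in both anterior libraries, so its fitted value is no bound on the change.

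Matrix and adhesion genes of the condensing mesenchyme were split, with 8 of 14 tested lower and 4 higher (median log2 fold change -0.40). That is 85.7% called, against 22.9% of all genes tested. Among the 8, Dcn passed the filter on low counts only because of its central libraries. The 4 that rose were Cdh11, Bgn, Has2 and Fbln1, all named after their values were seen. Their log2 fold changes were 1.14, 1.16, 0.93 and 0.37. Thbs1, encoding thrombospondin 1, measured 10.7 and 7.77 CPM in anterior and 112 and 90.9 CPM in central libraries (log2 fold change -3.45 ± 0.16 SE, edgeR adjusted p 3.52e-06). Vcan, the hyaluronan-binding proteoglycan of precartilage and chosen after its values were seen, was far more abundant than Acan, at 390 and 428 CPM in anterior and 999 and 894 CPM in central libraries. Of regulators of chondrogenesis other than the Sox trio, 7 fell and 1 rose of 22 tested (36.4% called, median -0.58). Barx2 and Cytl1, among the 7, passed the filter on low counts through the central libraries alone. The number that fell was 11 with the replicate block and also with no filter beyond 1 count. Foxc1, a forkhead factor of skeletal mesenchyme, measured 7.32 and 4.36 CPM in anterior and 73.5 and 59.3 CPM in central libraries (edgeR adjusted p 1.09e-05). Wwp2, the host gene of the cartilage microRNA miR-140 and chosen after its values were seen, was at 79.7 and 85.1 CPM against 207 and 138 CPM.

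Genes of BMP signalling, an inducer of cartilage, went in both directions. Of 23 tested, 7 were higher and 3 lower in anterior cells (43.5% called, against 22.9% of all genes tested, median 0.18). The ligand gene Gdf6 measured 11.9 and 10.4 CPM in anterior and 1.95 and 2.01 CPM in central libraries (log2 fold change 2.49 ± 0.22 SE, edgeR adjusted p 0.000108). The receptor gene Bmpr1b, required for digit cartilage and chosen after its values were seen, fell, at 12.95 and 7.09 CPM against 29.1 and 21.6 CPM (edgeR adjusted p 0.00691).

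Of the other Sox genes, 5 of 11 tested fell and 1 rose (54.5% called, against 22.9% of all genes tested, median -0.99). The rise was of Sox11, named after its values were seen. Sox11 was not called with library size alone, with upper-quartile factors, with a mean count of at least 50 or with the replicate block. Sox8, a SoxE relative of Sox9, measured 6.18 and 3.82 CPM in anterior and 13.8 and 10.5 CPM in central libraries, with a log2 fold change of -1.28 ± 0.26 (SE; edgeR adjusted p 0.0087) beside -1.27 for Sox9. Sox10, the SoxE factor of neural crest cells and chosen after its values were seen, was at 70 and 18 counts in central cells and at 0 in both anterior libraries. Sox17, also named after its values were seen, had 4 and 6 counts in anterior and 20 and 32 in central libraries. Sox10 and Sox17 passed the filter on low counts through the central libraries alone. Sox12 did not pass the test, at 299 and 266 CPM against 272 and 270 CPM.

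Of 26 tested genes of chondroitin sulfate synthesis, which build the side chains of aggrecan, 5 fell and none rose (19.2%, near the 22.9% of all genes tested; median -0.07), among them the sulfotransferase gene Chst11 at 8.69 and 7.26 CPM in anterior against 22.4 and 19.7 CPM in central libraries. Of 30 tested genes of collagen processing 8 fell and none rose (26.7%, median -0.13). They included the crosslinking enzyme gene Lox, at 0.899 and 0.682 against 10.3 and 6.58 CPM, while Serpinh1, the collagen chaperone, stood at 677 and 732 against 774.5 and 755 CPM and did not pass the test (edgeR adjusted p 0.241). Csgalnact1 (named after its values were seen) was among the chondroitin sulfate genes that fell, and Colgalt2 among those of collagen processing. Both passed the filter on low counts only because of their central libraries. Among genes of matrix breakdown 7 of 13 tested fell and 2 rose (69.2% called, median -0.35). The falls were led by the versican-cleaving protease gene Adamts15 at 3.78 and 2.52 against 34.1 and 30.2 CPM (edgeR adjusted p 9.13e-06). Mmp2 was at 333 and 324 against 329 and 315 CPM and did not pass the test.

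Tendon and connective tissue markers, whose progenitors share Sox9 with cartilage, were lower in anterior cells for 5 of 7 tested (71.4%, against 22.9% of all genes called). The median was -1.68 and the summed level 1315 and 1367 CPM against 2597 and 2350 CPM, mostly from Col1a1, Col1a2 and Col3a1. Scx, named after its values were seen, measured 10.6 and 10.1 CPM in anterior and 102 and 104 CPM in central libraries. Mkx and Col1a2 were not called, and Tnmd was near 0 in both populations. The part of these markers in the change of the cartilage genes was not tested. Schwann and melanoblast markers, in cells that also use Sox5 and Sox9, summed to 15.4 and 10.6 CPM in anterior and 29.7 and 24.7 CPM in central libraries. Of 6 tested 2 were lower (33.3%), Sox10 among them, and Tyrp1 and Fabp7 were at 0 in every library.

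The genes outside the 10 whose levels over the 4 libraries ran closest to the median profile of the cartilage genes were Astn1, Sema3c, Sparc, Enho and Plk2, of 10596 genes with a mean of at least 5 CPM. Likeness was the Euclidean distance between log2 CPM values centred on each gene's mean, and these 5 lay at 0.0704 to 0.14 from that profile, where Sox6 lay at 0.0825, Col9a1 at 0.237 and Sox9 at 0.296. Sparc, encoding a collagen-binding matrix protein, measured 19.3 and 13.6 CPM in anterior and 51.9 and 40.7 CPM in central libraries. The secreted guidance factor gene Sema3c measured 7.23 and 5.04 CPM against 20.9 and 15.1 CPM. Sox5, Acan and Col9a2 lay farthest of the 10 from their own median profile along with Col2a1, at 1.38, 1.73, 2.01 and 1.26.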

How the data were processed

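The values are raw read counts per gene symbol, whole numbers that the authors deposited without normalization. STAR 2.7.9a, HTSeq, DESeq2 (given as version 3.16) and the build mm10 are named per the submitters' processing notes, with no roles; strand and annotation are not given in the sources used here. Counts were tested with edgeR 4.0.16 in R 4.3.3: filterByExpr, TMM scaling, quasi-likelihood F test with no covariates, Benjamini-Hochberg adjustment over all 14610 genes tested, threshold 0.05, two-sided. The SE is the absolute log2 fold change divided by the square root of F. Exon lengths and positions come from GENCODE M21 (GRCm38) and promoters from RefSeq (GRCm38.p6).

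The 10 genes and the 16 gene lists were chosen with earlier results of these data known. Examples from 8 of these lists were taken from the 3 called genes with the largest change (mean of at least 1 CPM, groups not overlapping) and the most abundant uncalled gene; others are marked as chosen after their values were seen. Group and replicate came from the sample titles. The alternatives used DESeq2 1.42.0 and limma 3.58.1, and the test code was tested on simulated data, where the share of unchanged genes among the calls was above the nominal threshold, so calls near it are less certain.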

Additional observations from a re-analysis of the deposited data

How the results depend on the processing

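With 2 libraries a group, limits rest on single libraries. Over 16 alternatives, 6 to 9 of the 10 cartilage genes were called lower and none higher, and over the 14 that give one the median log2 fold change stayed between -1.74 and -1.27. Of the 10, 6 kept their direction and call throughout. The count of all genes called moved from 3351 to 1690 at an adjusted p under 0.01 and to 1035 against a 1.5-fold change, both stricter by construction, and ranged from 1941 to 3510 with 1 library left out, where the lone library is assumed to vary like the others. With 1 library left out, log2 fold changes changed sign for Acan (-2.97 to 1.21), Sox5 (-0.35 to 0.12), Tcfl5 (-0.0903 to 0.685), Sox12 (-0.0245 to 0.144) and Sox13 (-0.153 to 0.0987), and Mmp2 changed sign with library size alone (-0.00123) and upper-quartile factors (-0.0080). The cause was not tested. Of 45 other named or rule-chosen genes, 36 kept direction and call. With the replicate block, 7 cartilage genes and 3586 genes in all were called; the labels give no source for a pairing, and replicate deviations of the groups correlated at 0.0435 across genes. Of the gene lists, other cartilage matrix went from 7 to 4 calls and other Sox from 6 to 3 with a mean count of at least 50, which tests fewer of their genes. Acan had 6 to 106 counts a library, and its central libraries differed 18.57-fold in CPM.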
